A study of Mus musculus with 6 samples.

Results

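The genes of the T cell receptor complex and its coreceptors were followed in spleen cells of female NOD mice, an inbred strain that develops type 1 diabetes spontaneously. They were chosen by name, with earlier results of these data known. The set held the CD3 chains Cd3e, Cd3d and Cd3g, the zeta chain Cd247 and the adaptor Lat. The kinases Lck and Zap70 and the coreceptors Cd4 and Cd8a completed it. Of these 9 genes, 8 had at least 1 probe set that named them alone, 18 probe sets in all out of 45037, and the 8 genes stood among 18193 measured. Lck was not analysed here, because no probe set was annotated to it, alone or with another gene, in the annotation used.

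RNA of unstimulated splenocytes was compared among 3 groups. TSA-treated mice received trichostatin A, an inhibitor of histone deacetylases, by subcutaneous injection at 500 µg/kg each week between 18 and 24 weeks of age, and per the study's methods only treated mice that were cured entered the pool, so this group was selected by outcome. Untreated diabetic mice had become hyperglycemic, and untreated non-diabetic mice had stayed free of disease. All mice were of the same strain and sex and carried no transgene, the labels give an age of 32 to 36 weeks for every group, and the methods give younger ages for the diabetic and the treated mice. RNA was pooled into 1 pool for each group, of 3 to 5 mice by the labels and of slightly more by the methods. Each pool was hybridized to 2 arrays, called replicates 1 and 2. The spread between replicates and every p-value therefore measure labeling and hybridization, not mice. Levels are on the log2 scale, on which a difference of 1 is a doubling, and whole spleen cells were measured, so fewer T cells and less RNA for each T cell cannot be told apart.

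The T cell receptor recognizes a peptide held by an MHC molecule, but it cannot signal by itself. Its alpha and beta chains are carried to the cell surface with the CD3 gamma, delta and epsilon chains and the zeta homodimer, whose cytoplasmic tails hold the tyrosine motifs that Lck phosphorylates. ZAP-70 docks on these motifs and phosphorylates LAT, the membrane scaffold from which calcium and Ras signals start, while CD4 and CD8 bind MHC class II and class I and bring Lck to the receptor. In NOD mice, T cells of both coreceptor classes take part in the destruction of beta cells.

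The 3 CD3 genes are neighbours on chromosome 9. Cd3g and Cd3d start 1355 bases apart and are read in opposite directions, and Cd3e starts 27825 bases from Cd3d. Their upstream sequences are shown, with that of the zeta chain gene beside them. Each run is the 120 bases before the gene start in RefSeq (GRCm38.p6), and capitals mark an E-box (CACCTG or its reverse complement CAGGTG) or an Ets core (ACTTCC or GGAAGT).
Cd3g, chr9:44980432-44980551, minus strand: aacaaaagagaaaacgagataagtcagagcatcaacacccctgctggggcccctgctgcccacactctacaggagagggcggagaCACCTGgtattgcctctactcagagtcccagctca
Cd3d, chr9:44981666-44981785, plus strand: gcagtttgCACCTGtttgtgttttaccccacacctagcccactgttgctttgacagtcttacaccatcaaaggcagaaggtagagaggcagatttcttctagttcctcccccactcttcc
Cd3e, chr9:45009612-45009731, minus strand: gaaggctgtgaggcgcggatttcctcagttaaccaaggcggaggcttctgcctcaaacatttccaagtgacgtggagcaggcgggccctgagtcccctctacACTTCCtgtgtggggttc
Cd247, chr1:165788561-165788680, plus strand: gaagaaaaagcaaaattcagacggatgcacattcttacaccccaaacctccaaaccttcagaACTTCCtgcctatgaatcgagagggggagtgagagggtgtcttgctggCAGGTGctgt

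Promoter entries were matched for 7 of the 8 measured genes, all but Cd4, and Zap70 had 3 of them. Within 250 bases upstream and on either strand, 4 of the 7 held the E-box letters, which 17.2% of 32851 promoters held, and 4 held the Ets letters, found in 19.7% of promoters. The Runx core TGTGGT (or ACCACA) was found for 1 of the 7, Zap70, and in 14.0% of promoters. A gene was counted if any of its entries matched, while the shares are over single entries, so the counts for Zap70 drew on 3 entries. These are matches of letters and say nothing of which factors were bound.

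The duplicate arrays were less alike in some groups than in others. Over all probe sets, duplicates differed with an SD of 0.589 in TSA-treated, 0.522 in diabetic and 0.253 in non-diabetic mice. The 3′ signal of the beta-actin control exceeded its 5′ signal by 3.45 and 5.61 on the TSA-treated arrays (replicates 1 and 2), by 2.42 and 3.32 on the diabetic arrays and by 2.35 and 2.05 on the non-diabetic arrays, a gap that widens as RNA or labeled product gets shorter. TSA-treated replicate 2 had the widest gap, also for Gapdh (4.58), and TSA-treated replicate 1 the next widest for both controls (3.85 for Gapdh). Enzymes of the exocrine pancreas, which splenocytes are not known for, stood far higher in TSA-treated and in diabetic than in non-diabetic samples (median of 20 genes 3.33 and 6.04 on the log2 scale).

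By their brightest probe set, all 8 genes had their lowest mean in TSA-treated, middle mean in diabetic and highest mean in non-diabetic mice. Of all genes, 18.4% followed this order. The other probe sets of Cd247, Zap70, Cd4 and Cd8a did not all keep it. None of the differences passed the test at an adjusted p under 0.05. In simulated data the test called 3 of 50 planted log2 differences of 1, so a lack of calls does not show equal levels. By limma, 0 of the 18 probe sets were called between TSA-treated and non-diabetic mice, where 0.0688% of all probe sets were called. The count was also 0 between diabetic and non-diabetic mice (0.0888% of all) and between TSA-treated and diabetic mice (0.0266% of all), and the moderated F test across the 3 groups called 0 (0.0933% of all). At an unadjusted p under 0.05, 6 probe sets were lower and 1 was higher in TSA-treated than in non-diabetic mice, against 8.34% and 6.39% of all probe sets. Between diabetic and non-diabetic mice 2 were lower and 0 higher (3.43% and 2.84% of all), and between TSA-treated and diabetic mice 1 was lower and 1 higher (2.06% and 2.21% of all). The F test gave 3 at that level (9.53% of all). The local pooled error test and the t-test of the methods called 0 of the 18 in each comparison. Between TSA-treated and non-diabetic, diabetic and non-diabetic, and TSA-treated and diabetic mice, the first of these tests called 3.59%, 1.31% and 0.131% of all probe sets, and the t-test called 2, 1 and 0 of the 45037.

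**Figure D1:**
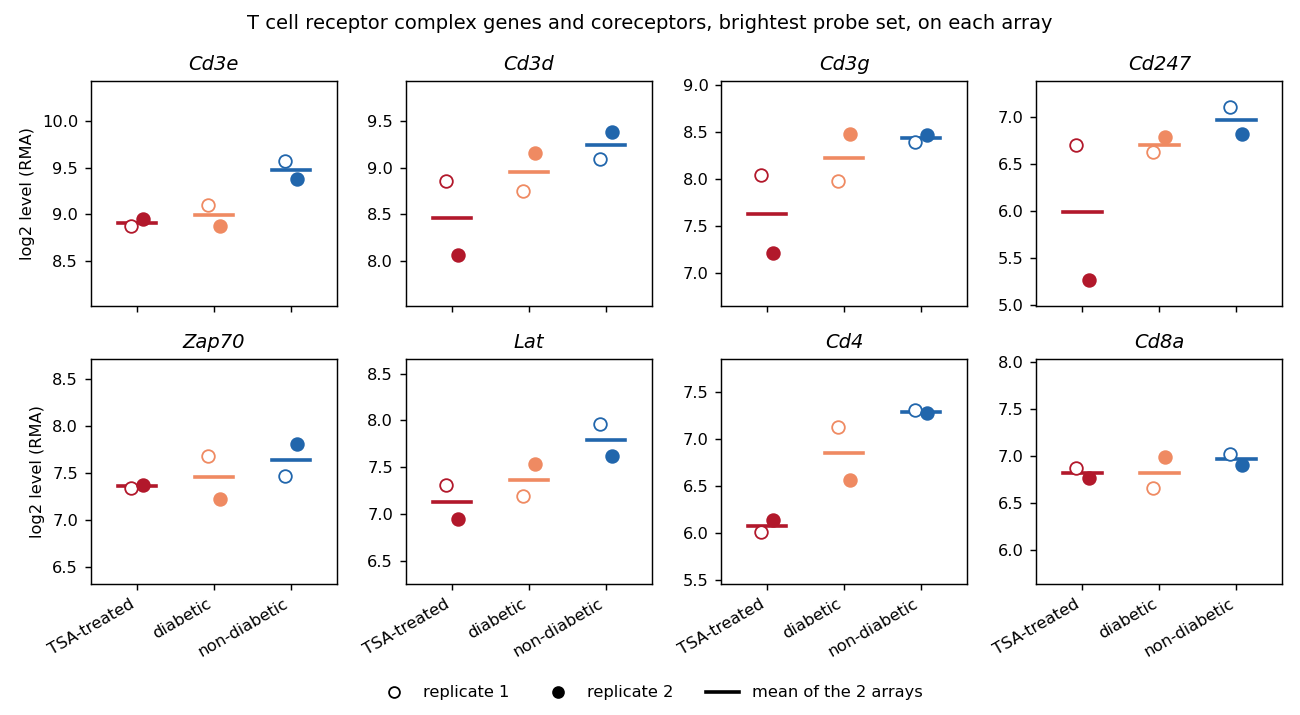
Log2 level (RMA) of the 8 measured genes on each of the 6 arrays, 1 panel for each gene, with open circles for replicate 1, filled circles for replicate 2 and a bar for each group mean. Both TSA-treated arrays lie below both non-diabetic arrays in every panel, and for Cd3d, Cd3g and Cd247 TSA-treated replicate 2 lies well below replicate 1.

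Of the CD3 chains, Cd3e gave the closest duplicates in treated mice. CD3 epsilon pairs with both the gamma and the delta chain, and no receptor is assembled without it. Cd3e (probe set 1422105_at) had log2 levels of 8.88 and 8.95 in TSA-treated mice, 9.10 and 8.88 in diabetic mice and 9.57 and 9.38 in non-diabetic mice. Both TSA-treated and both diabetic arrays lay below both non-diabetic arrays, and the treated and diabetic arrays overlapped. The difference was -0.56 between TSA-treated and non-diabetic mice (95% interval -0.98 to -0.14, limma adjusted p = 0.233) and -0.48 between diabetic and non-diabetic mice (-0.90 to -0.06, adjusted p = 0.785). Between TSA-treated and diabetic mice it was -0.08, with an interval of -0.50 to 0.34 (adjusted p = 0.954).

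CD3 delta and CD3 gamma each form a dimer with epsilon. Cd3d (1422828_at) stood at 8.86 and 8.06 in TSA-treated mice, 8.75 and 9.15 in diabetic mice and 9.09 and 9.38 in non-diabetic mice. Cd3g (1419178_at) stood at 8.05 and 7.21 in TSA-treated mice, 7.98 and 8.48 in diabetic mice and 8.39 and 8.47 in non-diabetic mice. For both genes TSA-treated replicate 2 was the lowest array, replicate 1 was close to the lower diabetic array, and the diabetic arrays overlapped the other groups. TSA-treated minus non-diabetic came to -0.78 for Cd3d (interval -1.54 to -0.02, limma adjusted p = 0.331) and -0.80 for Cd3g (-1.59 to -0.02, adjusted p = 0.330). Without TSA-treated replicate 2 these differences were -0.38 and -0.39. Diabetic minus non-diabetic was -0.28 for Cd3d (-1.04 to 0.48) and -0.21 for Cd3g (-0.99 to 0.58), and TSA-treated minus diabetic was -0.49 (-1.25 to 0.27) and -0.60 (-1.38 to 0.19).

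The zeta chain gene had the widest spread in treated mice. CD3 zeta carries more tyrosine motifs than any other chain of the complex, and NK cells use it too. Cd247 (1426396_at) had levels of 6.71 and 5.26 in TSA-treated mice, 6.63 and 6.78 in diabetic mice and 7.11 and 6.82 in non-diabetic mice. TSA-treated replicate 1 lay between the diabetic arrays, and replicate 2 lay 1.45 below replicate 1. TSA-treated minus non-diabetic was -0.98 with an interval of -2.10 to 0.13 (limma adjusted p = 0.395), and -0.26 without TSA-treated replicate 2. Without replicate 1 it was -1.71 and passed the test (adjusted p = 0.0286), as did TSA-treated minus diabetic at -1.45 (adjusted p = 0.0477), in fits where the remaining treated array was assumed to vary like the other groups and where 2045 and 1047 probe sets were called in all. With all arrays TSA-treated minus diabetic was -0.72 (-1.84 to 0.39), and diabetic minus non-diabetic was -0.26 (-1.38 to 0.86). The other 3 probe sets of Cd247 stayed between 2.34 and 3.09 on all arrays, below the array medians of 3.79 to 3.95, and carried little signal.

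ZAP-70 is the kinase that binds the phosphorylated chains. Zap70 by its brightest probe set (1439749_at) had levels of 7.35 and 7.37 in TSA-treated mice, 7.69 and 7.23 in diabetic mice and 7.47 and 7.81 in non-diabetic mice. The treated arrays were the closest pair, and the diabetic arrays reached from below the treated to above the lower non-diabetic array. The differences were -0.28 between TSA-treated and non-diabetic mice (-0.83 to 0.27), -0.18 between diabetic and non-diabetic mice (-0.73 to 0.37) and -0.10 between TSA-treated and diabetic mice (-0.65 to 0.45). The other probe sets also gave values below non-diabetic mice in both groups, by -0.22 in TSA-treated and -0.43 in diabetic mice for 1440178_x_at, and by -0.49 and -0.38 for 1422701_at. Their order between TSA-treated and diabetic mice was opposite, at 0.22 for 1440178_x_at and -0.11 for 1422701_at, and limma's adjusted p was 0.321 or more for all of these values.

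LAT is the scaffold that ZAP-70 phosphorylates. Lat (1460651_at) had levels of 7.31 and 6.95 in TSA-treated mice, 7.19 and 7.54 in diabetic mice and 7.97 and 7.62 in non-diabetic mice. Both treated and both diabetic arrays lay below both non-diabetic arrays. The difference was -0.66 between TSA-treated and non-diabetic mice (interval -1.23 to -0.09, limma adjusted p = 0.280) and -0.43 between diabetic and non-diabetic mice (-1.0 to 0.14). TSA-treated minus diabetic was -0.23 (-0.80 to 0.34), and these arrays overlapped.

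The largest difference between TSA-treated and non-diabetic mice among the 8 genes was that of Cd4. CD4 marks helper and regulatory T cells, and a subset of mouse dendritic cells carries it as well. Cd4 (1419696_at) had levels of 6.01 and 6.14 in TSA-treated mice, 7.13 and 6.57 in diabetic mice and 7.31 and 7.28 in non-diabetic mice. The groups did not overlap in any comparison, and neither treated array stood apart from the other. The mean of TSA-treated mice was 42.9% of the non-diabetic level (log2 difference -1.22, SE 0.22, interval -1.77 to -0.67, limma adjusted p = 0.127) and 58.4% of the diabetic level (-0.78, -1.33 to -0.23, adjusted p = 0.902). Diabetic minus non-diabetic was -0.45 (-1.0 to 0.10). The first difference passed the test, at an adjusted p of 0.0488, without diabetic replicate 1 or 2 or with the 2 groups fitted alone, which are the same fit for this comparison and called 714 probe sets in all. The second Cd4 probe set (1427779_a_at) stayed between 2.47 and 2.86 on every array.

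CD8 alpha is the chain common to the CD8 homodimer and heterodimer, found on cytotoxic T cells and on a subset of mouse dendritic cells. Cd8a by its brightest probe set (1425335_at) had levels of 6.87 and 6.77 in TSA-treated mice, 6.66 and 6.99 in diabetic mice and 7.02 and 6.91 in non-diabetic mice. The treated arrays lay just below the non-diabetic arrays. The diabetic arrays reached from below the treated arrays to above the lower non-diabetic array. TSA-treated minus non-diabetic was -0.14 (-0.59 to 0.30), diabetic minus non-diabetic was -0.14 (-0.59 to 0.30), and TSA-treated minus diabetic was close to 0 (interval -0.45 to 0.44). With intervals that reach -0.59, a common level in the groups was not shown.

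The 5 probe sets of Cd8a did not run the same way. For 1444078_at the TSA-treated arrays were at 7.05 and 5.99 and the non-diabetic arrays at 7.31 and 7.15, a difference of -0.71 (-1.66 to 0.25). For 1451673_at replicate 2 of the treated mice was again the low array, at 3.92 against 5.30 in replicate 1, and the difference from non-diabetic mice was -0.54 (-1.78 to 0.70). For 1440164_x_at the order of the treated duplicates was the reverse, at 5.57 and 6.31, with a difference of 0.26 (-0.50 to 1.01). The probe set 1440811_x_at, near the array medians, also gave its highest values in treated mice. It had levels of 4.21 and 4.48 in TSA-treated mice, 3.53 and 3.53 in diabetic mice and 3.88 and 3.79 in non-diabetic mice, so that the treated arrays were the highest, with differences of 0.51 from non-diabetic mice (limma adjusted p = 0.263) and 0.82 from diabetic mice (adjusted p = 0.902). Which part of the transcript each probe set reads was not examined here.

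**Figure D2:**
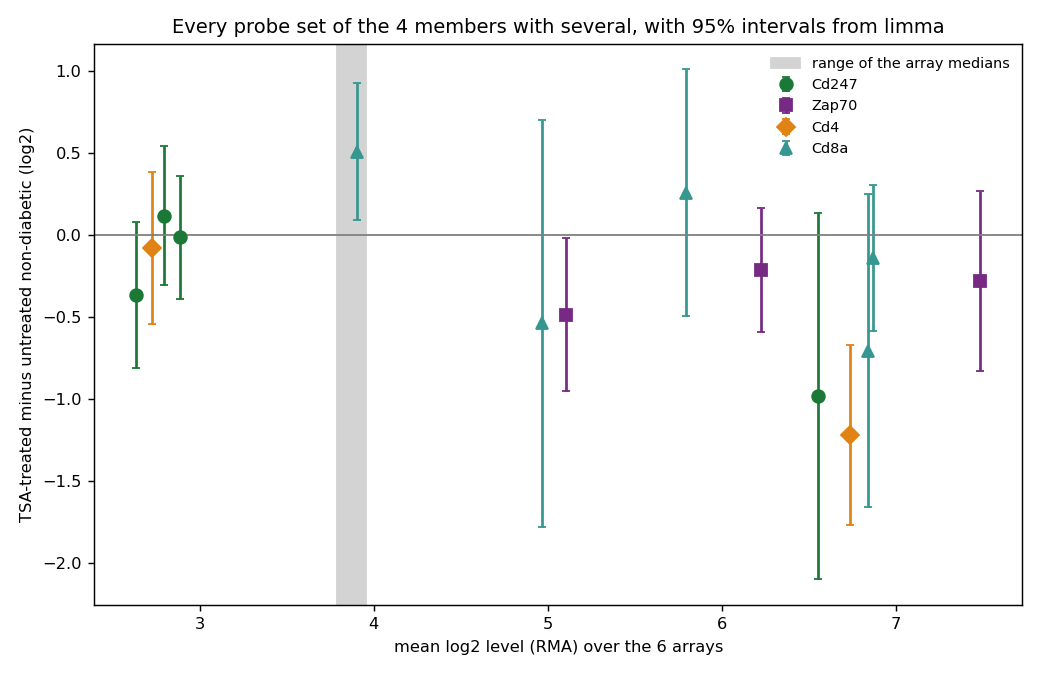
Difference between TSA-treated and untreated non-diabetic mice (log2, y axis) against the mean log2 level over the 6 arrays (x axis) for each probe set of Cd247, Zap70, Cd4 and Cd8a, with 95% intervals from limma and the range of the array medians shaded. The 5 probe sets in or below the shaded range lie between -0.37 and 0.51, while the Cd8a probe sets at higher levels spread from -0.71 to 0.26.

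Read over the genes, both TSA-treated arrays lay below both non-diabetic arrays for 8 of 8, against 19.6% of all genes. Both diabetic arrays lay below both non-diabetic arrays for 4 of 8 (Cd3e, Cd247, Lat and Cd4), against 17.5% of all genes. Both TSA-treated arrays lay below both diabetic arrays for 1 of 8 (Cd4), against 12.4% of all genes. Read over the 18 probe sets, TSA-treated arrays were all lower than non-diabetic arrays for 12 and all higher for 1 (21.5% and 26.3% of all probe sets). Diabetic arrays were all lower than non-diabetic arrays for 9 and all higher for 0 (19.4% and 21.6% of all), and TSA-treated arrays were all lower than diabetic arrays for 2 and all higher for 3 (11.4% and 16.2% of all). The 8 genes serve 1 receptor and its signalling in T cells and the comparisons share arrays, so these counts are not independent observations. The genes were also chosen with earlier results of these data known, so the shares of all genes are no test of the set.

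The median difference of the 8 genes was -0.72 between TSA-treated and non-diabetic mice, beside 0.07 over all genes and 0.04 over the 7098 genes with a mean level over 6. It was -0.27 between diabetic and non-diabetic mice (0.04 and 0.11) and -0.36 between TSA-treated and diabetic mice (0.02 and -0.06). The first of these moved with the treated array used: it was -1.0 without TSA-treated replicate 1 and -0.38 without replicate 2. The last was -0.56 and -0.10 in the same fits, and without replicate 2 Cd247 and Cd8a stood at 0.0003 and 0.05 there. The array on which the median of the 8 genes was lowest, TSA-treated replicate 2, was also the array with the widest 3′ to 5′ gap. Not every gene was lowest there: Cd3e and Cd4 were lowest on TSA-treated replicate 1, and Zap70 and Cd8a on a diabetic array. The part of the 3′ to 5′ gap in the result was not tested. Without TSA-treated replicate 2 the treated minus non-diabetic difference was -0.60 for Cd3e, -1.29 for Cd4 and -0.29 for Zap70. It was smaller than with both treated arrays for Cd3d (-0.38), Cd3g (-0.39), Cd247 (-0.26), Lat (-0.48) and Cd8a (-0.09). The treated array that remained, replicate 1, also had wider gaps than both non-diabetic arrays, for beta-actin (3.45) and Gapdh (3.85).

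**Figure D3:**
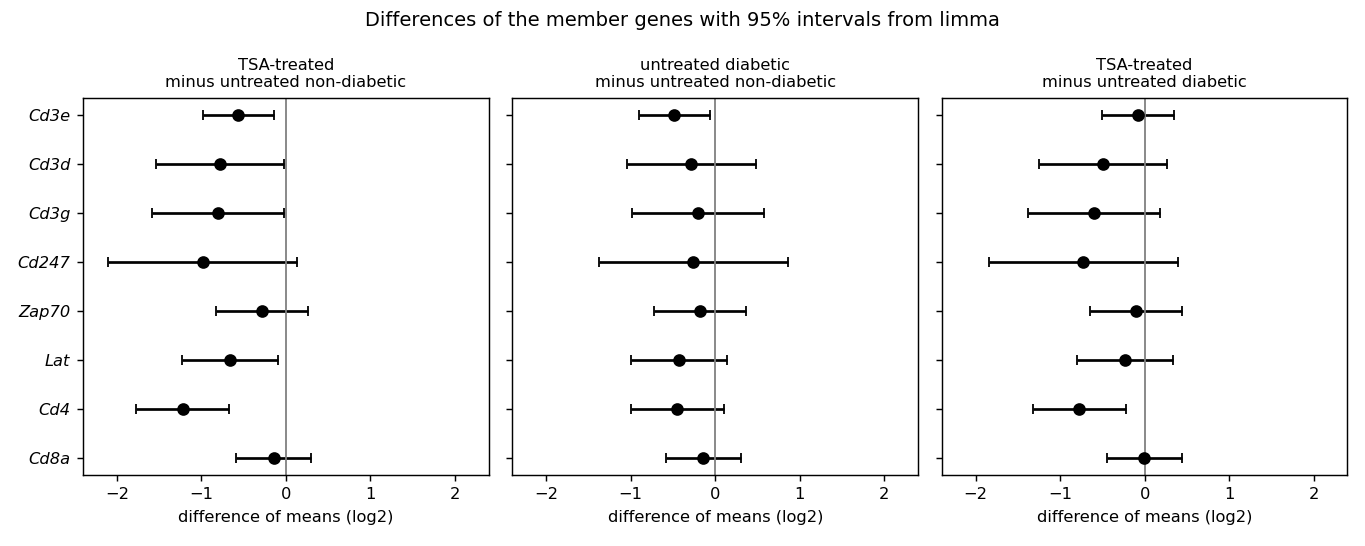
Differences of group means (log2, x axis) of the 8 genes (y axis) for TSA-treated minus untreated non-diabetic, untreated diabetic minus untreated non-diabetic and TSA-treated minus untreated diabetic mice, with 95% intervals from limma. All points lie at or below 0, intervals clear of 0 are found for Cd3e, Cd3d, Cd3g, Lat and Cd4 on the left, for Cd3e in the middle and for Cd4 on the right, and none of these passed adjustment over all probe sets.

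The genes did not vary as a block from array to array. With each gene centred on its mean over the 6 arrays, Cd3d and Cd3g were the closest of the 28 pairs, with a root mean square difference of 0.08, and the next pair, Cd3e and Zap70, was at 0.22. Cd3e was at 0.38 from Cd3d and 0.40 from Cd3g. Such distances include the gaps between the 2 arrays of 1 pool, which measure labeling and hybridization. No distance over all pairs of genes was set beside them. Cd247 and Zap70 were the farthest pair, at 0.59. Set against Cd3e on the same array and relative to non-diabetic mice, Cd4 was lower by -0.69 and -0.63 in TSA-treated mice and stood at 0.21 and -0.14 in diabetic mice, while Cd3d was at 0.22 and -0.65 in TSA-treated mice and -0.11 and 0.51 in diabetic mice. Cd4 thus lay further below its non-diabetic level than Cd3e did on both treated arrays, and Cd3d on replicate 2 alone, and this difference between genes was not tested.

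Outside the 8 genes, the profiles most like their mean profile were those of Slc25a45 (root mean square difference 0.04), Gtf2i (0.04), Ifi35 (0.05), Rp9 (0.06) and Ski (0.06), of 7090 genes with a mean level over 6, over 6 arrays. Slc25a45 is a member of the mitochondrial carrier family, Gtf2i and Ski act in transcription, and Ifi35 is induced by interferon. None of these is a defining gene of T cells.

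The other genes of the pathway were read from lists drawn up for this comparison. Of 12 genes for receptor constant regions and CD8 beta, 2 were measured by a probe set of their own, Tcra and Cd8b1. Both lay near or below the array medians, with TSA-treated minus non-diabetic differences of -0.15 and -0.45. Diabetic minus non-diabetic was -0.27 and -0.72, and TSA-treated minus diabetic was 0.12 and 0.27. These 2 genes were thus lowest in diabetic mice and did not follow the order of the 8. Of 33 proximal signalling genes (kinases, adaptors and phosphatases next to the receptor) 32 were measured, and limma called 0 in each comparison, beside 0.115%, 0.126% and 0.055% of all genes between TSA-treated and non-diabetic, diabetic and non-diabetic, and TSA-treated and diabetic mice. At an unadjusted p under 0.05, 10 of the 32 were lower and 0 higher in TSA-treated than in non-diabetic mice (7.19% and 8.8% of all genes), and the median difference was -0.38. Between diabetic and non-diabetic mice 3 were lower and 0 higher (2.41% and 4.33% of all genes, median -0.02), and between TSA-treated and diabetic mice 5 were lower and 0 higher (2.81% and 2.68% of all genes, median -0.31).

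Within that list the lowest TSA-treated minus non-diabetic differences were those of a kinase that restrains the receptor and of one that starts it. Csk, which phosphorylates the inhibitory tail of Src kinases, had levels of 6.71 and 5.60 in TSA-treated mice, 8.21 and 7.43 in diabetic mice and 8.28 and 8.24 in non-diabetic mice. Its difference from non-diabetic mice was -2.10 in TSA-treated mice (limma adjusted p = 0.140). Fyn, a Src kinase that works beside Lck, had levels of 7.58 and 6.62 in TSA-treated mice, 8.38 and 7.49 in diabetic mice and 8.74 and 8.76 in non-diabetic mice, with a difference of -1.65 (adjusted p = 0.182). Both genes kept the order of the 8, and replicate 2 was again the lower treated array. At the other end stood the adaptors Nck1 (0.43), whose treated arrays lay above both non-diabetic arrays, and Sla (0.22), whose arrays overlapped.

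Between diabetic and non-diabetic mice the lowest were Dgkz, a diacylglycerol kinase that dampens signals from LAT (-0.93), and Fyn (-0.82), and the highest were Nck1 (0.76) and Sla (0.34). Between TSA-treated and diabetic mice they were Csk (-1.66) and the inhibitory surface receptor Cd5 (-1.35) at the low end, and the adaptors Fyb (0.21) and Pag1 (0.14) at the high end. Further from the receptor, 20 of 27 distal signalling genes were measured, 0 were called, and 4 were lower at an unadjusted p under 0.05 in TSA-treated than in non-diabetic mice (median -0.31), beside 7.19% of all genes. All 16 costimulation genes were measured, 0 were called, and 2 were lower at that level (median -0.04), beside the same share of all genes. Without TSA-treated replicate 1, 9 of the 70 genes of these 4 lists passed the test against non-diabetic mice and 5 against diabetic mice, where 5.91% and 2.97% of all genes passed. The local pooled error test called 3 of the 70 between TSA-treated and non-diabetic mice, 1 between diabetic and non-diabetic mice and 0 between TSA-treated and diabetic mice, beside 1.82%, 0.544% and 0.154% of all genes.

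Markers of T cells as a whole and of other spleen cells were read on the same arrays. Of 20 pan T cell markers 18 were measured, with 0 called. Against non-diabetic mice 7 were lower in TSA-treated mice at an unadjusted p under 0.05 (7.19% of all genes), and the median was -0.12 and -0.62 on replicates 1 and 2, beside -0.38 and -1.0 for the 8 receptor genes. Thy1, a surface protein of mouse T cells, had levels of 7.89 and 8.19 in TSA-treated mice, 8.24 and 8.24 in diabetic mice and 8.87 and 8.65 in non-diabetic mice. Cd28, the main costimulatory receptor, did not follow it, at 7.51 and 6.43 in TSA-treated mice, 7.10 and 7.85 in diabetic mice and 6.78 and 6.89 in non-diabetic mice. Thy1 and Cd28 were picked after their values were seen, and they do not span the list. Over the 18 markers TSA-treated minus non-diabetic ran from -1.84 to 0.22 (median -0.44, beside 0.07 over all genes). At an unadjusted p under 0.05, 0 of the 18 were higher in TSA-treated than in non-diabetic mice (8.8% of all genes).

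Of 18 B cell markers 16 were measured, and all 16 had both TSA-treated arrays below both non-diabetic arrays (19.6% of all genes). At an unadjusted p under 0.05, 12 of them were lower in TSA-treated than in non-diabetic mice (7.19% of all genes), and 0 were called. Their array medians were -0.61 and -1.35 in TSA-treated and -0.25 and -0.08 in diabetic mice. The 8 plasma cell markers measured had a median difference of -0.62 between TSA-treated and non-diabetic mice. The 13 NK cell markers measured, from cells that also use Cd247, Zap70 and Lat, had a median of 0.07 in TSA-treated and 0.43 in diabetic mice against non-diabetic mice. For 11 dendritic cell markers the medians were -0.10 and 0.04, for 14 monocyte and macrophage markers 0.16 and 0.25, and for 11 neutrophil markers -0.09 and 0.55. Erythroid markers (16 measured, 0.55 and 0.47) and cell cycle genes (18 measured, 0.78 and 0.70) had medians above 0 in both groups, with 8 and 9 of them higher at an unadjusted p under 0.05 in TSA-treated mice (8.8% of all genes) and 0 called. On TSA-treated replicates 1 and 2 the medians were 1.00 and 0.43 for erythroid markers and 1.2 and 0.40 for cell cycle genes, and on the diabetic arrays 0.46 and 0.46 and 0.48 and 0.95. Of the 20 exocrine pancreas genes, 13 rose in TSA-treated and 18 in diabetic mice against non-diabetic mice by limma at an adjusted p under 0.05, and 6 fell in TSA-treated against diabetic mice. The 13 calls were 0 without either non-diabetic array, and the 6 were 0 with a replicate block, with median centring, with the 2 groups alone and without any 1 array other than TSA-treated replicate 1, without which they were 20. The part of these cell types in the levels of the receptor genes was not tested.

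**Figure D4:**
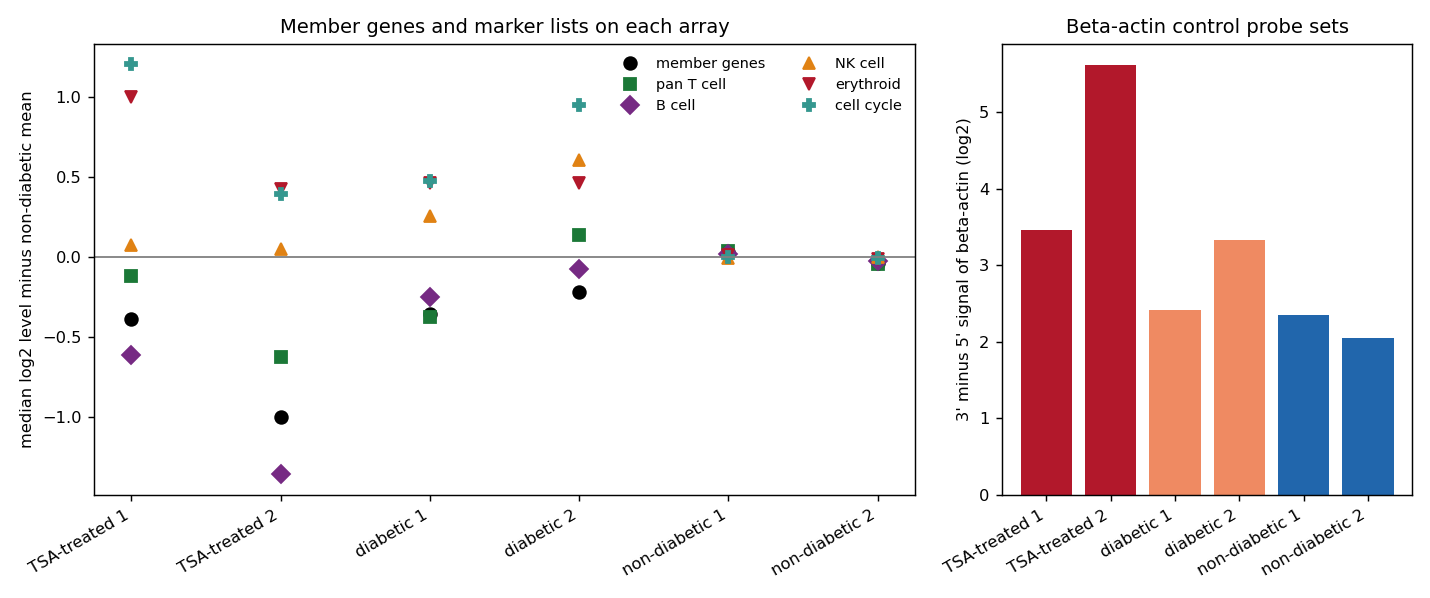
Left, median log2 level of the 8 receptor genes and of 5 gene lists on each array, minus their mean over the non-diabetic arrays; right, 3′ minus 5′ signal of the beta-actin control (log2) on the same arrays. The medians of the receptor genes and of the T and B cell markers are lowest on TSA-treated replicate 2, at -1.0, -0.62 and -1.35. The beta-actin gap is widest on that array, at 5.61. The medians of the erythroid markers lie above 0 on all treated and diabetic arrays.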

How the data were processed

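Spleen RNA was measured on 6 Affymetrix mouse genome arrays. Deposited values are log2 levels from RMA, which the authors ran with quantile normalization in S-Plus 6.2 (S+Array Analyzer 2.0.1). RMA compresses differences at low levels. Of 45101 probe sets, 64 controls were left out, and 34945 of the rest named 1 gene, 932 several and 9160 none in the platform annotation.

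All arrays were fitted with limma 3.58.1 (R 4.3.3; 3 residual and 2.94 prior degrees of freedom), 1 mean for each group, with Benjamini-Hochberg adjustment over 45037 probe sets and a threshold of 0.05. In simulated data the fit called 3 of 50 planted log2 differences of 1 and 42 of 50 of 2. It also called 16 of 44837 unchanged probe sets. A gene was represented by its brightest probe set. The members and the 14 lists (245 symbols, 205 genes measured) were chosen with earlier results of these data known. All measured members were named; of lists, called genes and, near the receptor, the 2 highest and 2 lowest. The number of arrays limits precision. Alternatives were a replicate block, leaving out each array, 2 groups alone, the LPE test (rewritten) and t-test of the methods, an intensity trend, robust variances, a filter on dim probe sets, median centring, renewed quantile normalization and the mean of a gene's probe sets. Promoters were RefSeq's (GRCm38.p6).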

Additional observations from a re-analysis of the deposited data

How the results depend on the processing

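Few arrays, and duplicates of 1 pool, limit what these differences can show, and at levels near the array medians changes are compressed. The count of receptor probe sets called ranged from 0 to 1 over fits that left out 1 array, both between TSA-treated and non-diabetic mice (Cd4 or Cd247) and between TSA-treated and diabetic mice (Cd247). With the 2 groups alone it was 1 between TSA-treated and non-diabetic mice. The median difference of the 8 genes ranged from -1.0 to -0.38 between TSA-treated and non-diabetic mice and from -0.35 to -0.22 between diabetic and non-diabetic mice over those fits. After renewed quantile normalization it was -0.354 between diabetic and non-diabetic mice. Between TSA-treated and diabetic mice it was -0.36 with all arrays, -0.56 to -0.10 with 1 left out, -0.19 with a gene's probe sets averaged and -0.22 after renewed quantile normalization. The cause was not tested.

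Differences against non-diabetic mice changed sign for 3 genes when a diabetic array was left out: Cd3g (range -0.46 to 0.045), Zap70 (-0.41 to 0.048) and Cd8a (-0.31 to 0.024). Between TSA-treated and diabetic mice the ranges crossed 0 for Cd3e (-0.19 to 0.030), Cd247 (-1.45 to 0.00030), Zap70 (-0.33 to 0.13) and Cd8a (-0.17 to 0.16). There renewed quantile normalization gave 0.031 for Cd3e, 0.042 for Zap70 and 0.16 for Cd8a, and averaging a gene's probe sets gave 0.0019 for Zap70 and 0.042 for Cd8a. Between TSA-treated and non-diabetic mice no alternative run turned a sign, and 69 of 72 values kept their side of the threshold.

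By limma with all arrays, every list gene called was an exocrine pancreas gene, and 0 were called in the other lists. Of the 205 list genes, 13 were called between TSA-treated and non-diabetic mice, beside 0.115% of all genes. There were 18 between diabetic and non-diabetic mice (0.126% of all genes) and 6 between TSA-treated and diabetic mice (0.055% of all genes). Leaving out 1 array gave 0 to 53, 13 to 20 and 0 to 47. The LPE test gave 34, 30 and 17 list genes, of which 17, 20 and 16 were exocrine pancreas genes. It called 1.82%, 0.544% and 0.154% of all genes. The t-test of the methods gave 0 list genes in each comparison. With the 2 groups alone the first count was 20 and the last 0, and for the last a filter on dim probe sets gave 12 and median centring 0.

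The deviations of same-numbered arrays correlated at -0.11 (TSA-treated with diabetic), -0.04 (TSA-treated with non-diabetic) and -0.34 (diabetic with non-diabetic), so the numbers did not pair the arrays. With a replicate block 0 receptor probe sets were called in any comparison, and of all probe sets 30, 33 and 0 were called in place of 31, 40 and 12; of list genes, 0 rather than 6 were called between TSA-treated and diabetic mice. A block with the diabetic numbers exchanged, added after seeing the data, called 0 receptor probe sets, 27, 41 and 0 probe sets in all, and 0 list genes between TSA-treated and diabetic mice.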
